A study of Mus musculus with 14 samples.

Results

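Gene expression of the mouse mammary carcinoma line D2A1 was set against that of wild-type (WT, Hsf1 +/+) mouse embryonic fibroblasts, with each cell type grown on its own for 72 hours in DMEM with 10% FCS. The 4 arrays were chosen by their sample titles, 2 of tumor cells and 2 of WT fibroblasts, out of 14 arrays in the series. Other arrays of the series held both cell types separated by cell sorting after 72 hours together, and fibroblasts that were Hsf1 -/-, a stock lacking the gene of heat shock factor 1. Of these, D2A1 cells and WT fibroblasts sorted from co-culture with each other (2 arrays each) and Hsf1 null fibroblasts grown alone (2 arrays) are used below. The labels give the tumor cells no Hsf1 genotype. The WT fibroblasts are embryonic rather than mammary, each cell type is 1 line or stock as far as the labels say, and mitomycin C was applied to fibroblasts only where cancer cells from co-culture were to be profiled. No label says that the 2 arrays of a group came from separate cultures. The p-values measure the spread between arrays of a group, pooled over all 14 arrays of the series, and this spread may be technical.

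Total RNA was hybridised to Agilent arrays of 1 colour, and the values below are the log2 expression values of the authors' table, which names 36413 genes. Every A array shared 1 slide, and the B arrays shared another. The scanner file of tumor array A was faulty: 32.1% of its spots carried outlier flags, and its highest correlation with any sound array was 0.302. In the authors' table the same array looked sound, since the lowest correlation between any 2 of the 14 arrays was 0.935, so that table was used, and the background flag for tumor cells rests on array B. Set against the scanner signals of the B arrays, differences between tumor cells and WT fibroblasts were smaller in the table, with a slope of 0.668 over all genes and 0.833 over genes well above background in both groups. Differences of dim genes are therefore smaller in the table than in the scanner signals, and which of these lies nearer the true difference was not tested. Only 2 arrays a group limit the precision of every value, a level is never compared between probes of different genes, and the fold of a gene too dim to stand well above background in a group is given as a lower bound. Such a bound sets the brighter group against the lowest signal well above background on the dimmer group's arrays, or against the gene's own value there where that was higher.

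Epithelial cells of the breast are held together by keratin filaments, desmosomes and tight junctions, and carcinomas that have gone through epithelial-to-mesenchymal transition (EMT) lose part of this equipment and gain motility and matrix-degrading enzymes. Fibroblasts are the main makers of the collagen matrix, and they carry the Hox code of the body site they came from. They also supply growth factors, Wnt modulators, chemokines and complement to neighbouring cells. A comparison of the 2 cell types grown apart gives the baseline against which changes in co-culture are read.

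Tumor cells and WT fibroblasts differed across much of the transcriptome. Of 25852 genes tested with limma, 13306 (51.5%) passed an adjusted p of 0.05, and 5737 (22.2%) also differed at least 2-fold, which is the call used below. Of the calls, 2697 (10.4% of genes tested) were higher in tumor cells and 3040 (11.8%) were lower, and the median difference over all genes tested was 0.084 on the log2 scale. At a 4-fold threshold 2118 genes (8.19%) were called, 712 higher (2.75%) and 1406 lower (5.44%) in tumor cells, and at 8-fold 1156 (4.47%). The largest differences lay mostly on the fibroblast side: 310 genes were at least 8-fold higher in tumor cells (1.20%) and 846 at least 8-fold lower (3.27%). This balance includes genes dim in 1 group: 2640 genes were well above background only in WT fibroblasts, against 533 only in tumor cells. Among the 20017 genes well above background in both groups, the 2-fold calls leaned the other way, 2312 higher and 1826 lower in tumor cells. Counts of list members are read against 10.4% and 11.8%. A gene was tested if it stood well above background in any 1 group of the series. Members dim in tumor cells could therefore add to the counts of lower genes but hardly to those of higher ones. Of the 236 genes called and named below, Lsr was no longer called without tumor array A, Axl, Ereg, Esrp2, Tapbp and Tyrobp without tumor array B, Ereg, Esrp2 and Plau without WT array A, and Erbb2 and Tyrobp without WT array B. Differences are log2 values, tumor cells minus WT fibroblasts, ± SE with n = 2 arrays each. The SE draws on the spread within groups over all 14 arrays of the series, not on the compared arrays alone. Adjusted p-values are from limma with Benjamini-Hochberg adjustment over all genes tested.

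**Figure D1:**
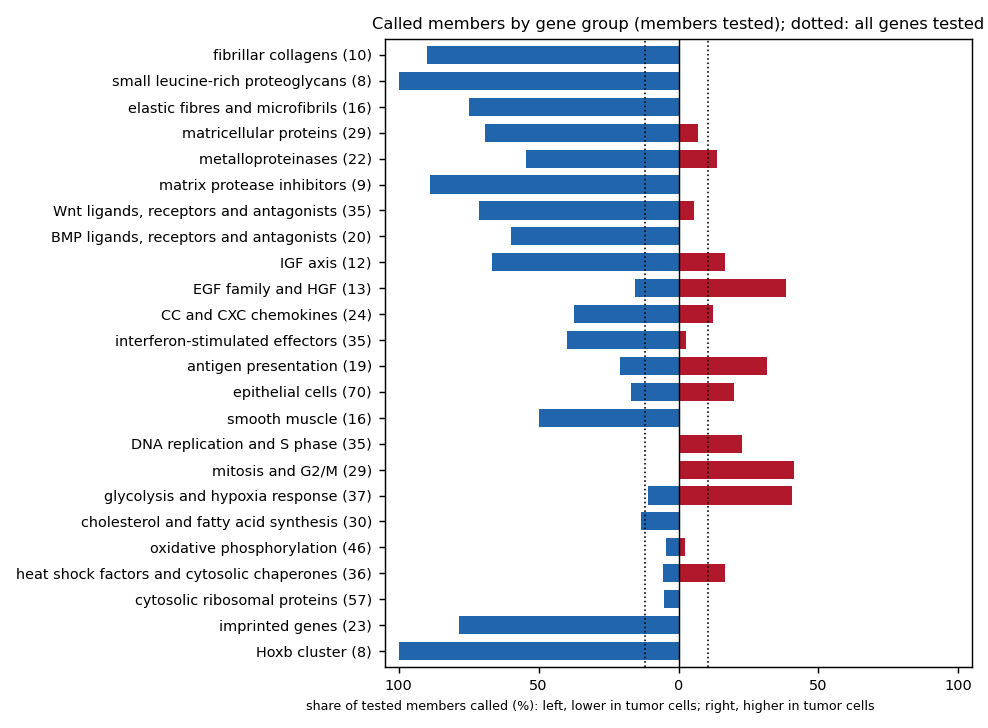
Share of tested members called in each gene group, in percent (horizontal axis), with the number of members tested in brackets; bars to the right are members called higher in tumor cells and bars to the left members called lower. Dotted lines mark 10.4% higher and 11.8% lower over all genes tested. Matrix groups lie far to the left, and mitosis genes and the list of glycolysis and hypoxia response genes to the right.

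The labelled cell types were checked against markers of each. All 17 fibroblast markers that were tested were lower in tumor cells, 7 of them not well above background there, and their summed signal on the linear scale was 25342 and 27500 on the tumor arrays, against 972616 and 951909 on the WT arrays. The epithelial markers gave a mixed picture in tumor cells. Of 18 tested, Krt8, Krt18, Cldn3 and Elf3 were called higher and Krt19 and Dsp lower, while Epcam and Ovol1 were not well above background on both arrays of any group and were not tested. Of 10 macrophage markers, Cd14 and Tyrobp were called higher and Aif1 lower, and 8 of the 10 were well above background in tumor cells, as were 8 in WT fibroblasts; their sums are given with the immune genes. Among the 6 neural markers Nes was called higher and S100b and Tubb3 lower, among 4 endothelial markers tested Egfl7 was called lower, and among 4 muscle markers tested Acta1 was called lower. In these bulk RNA samples a smaller number of cells of a type and less RNA per cell cannot be told apart.

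Keratin 18, the type I keratin of simple epithelia, was among the genes that set the cell types furthest apart. Krt18 stood at 16.47 and 16.54 on the tumor arrays, against 7.84 and 8.18 on the WT arrays, a difference of 8.49 ± 0.22 (adjusted p = 1.12e-09). Its partner Krt8 stood at 8.44 and 8.44 in tumor cells and at 4.81 and 5.05 in WT fibroblasts, where it was not well above background, which makes it at least 11.4-fold higher. Over 12 keratins tested, 2 were higher and 2 lower in tumor cells. The lower ones were Krt19, at 5.29 and 5.42 in tumor cells and 8.65 and 8.77 in WT fibroblasts, and Krt15, which was at least 23.6-fold lower. The basal keratins Krt5 and Krt14 were not called, with differences of 0.09 ± 0.11 and 0.68 ± 0.15.

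E-cadherin, the cell adhesion protein of adherens junctions, was not well above background in either cell type: Cdh1 had 5.29 and 5.01 in tumor cells and 5.06 and 5.19 in WT fibroblasts. Of 18 junction genes tested, 4 were higher and 4 lower in tumor cells. The claudins of tight junctions Cldn3 and Cldn6 were at least 28.7-fold and 5.50-fold higher, with Cldn3 at 9.93 and 9.73 in tumor cells against 5.12 and 4.85 in WT fibroblasts. The tight junction adhesion molecule F11r (difference 3.92 ± 0.23) and the junction plaque protein Cgn (3.42 ± 0.21) were also higher in tumor cells than in WT fibroblasts. The fibroblast stocks differed for both genes: F11r had 14.35 and 14.58 and Cgn 12.80 and 12.56 in Hsf1 null fibroblasts, above the tumor cells, whose levels were 11.76 and 11.74 for F11r and 9.78 and 9.98 for Cgn. The p120 catenin gene Ctnnd1, which stabilises cadherins, was lower by a difference of -1.32 ± 0.16, and the tricellular junction gene Lsr was at least 2.94-fold lower in tumor cells.

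Desmosome genes, of which 8 were tested, gave 3 higher and 2 lower in tumor cells. Pkp1, a plakophilin, stood at 11.13 and 11.36 in tumor cells against 6.47 and 6.56 in WT fibroblasts (4.73 ± 0.15), and Pkp3 at 16.60 and 16.08 against 12.41 and 11.96 (4.16 ± 0.37). Perp, a desmosome and p53-target membrane protein, had 10.57 and 10.77 in tumor cells and 6.28 and 6.46 in WT fibroblasts, while the null stock, at 10.63 and 10.73, lay at the tumor level. Desmoplakin (Dsp), which ties desmosomes to keratins, went the other way: it was at least 23.4-fold lower in tumor cells, with 5.14 and 5.03, against 9.49 and 9.77 in WT fibroblasts. Among transcription and splicing regulators of epithelia, Elf3 was at least 4.36-fold higher, Klf5 was higher by 1.80 ± 0.15 and Esrp2 by 1.004 ± 0.14, whereas Gata3 (-3.40 ± 0.19) and Trp63 (-1.63 ± 0.13) were lower. Esrp1 and Grhl2, regulators of the epithelial splicing and junction programmes, were not called, at 0.26 ± 0.12 and -0.15 ± 0.17. Over all 70 epithelial genes tested, 14 were higher and 12 lower, and their median difference of 0.12 lay close to the 0.084 of all genes.

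**Figure D2:**
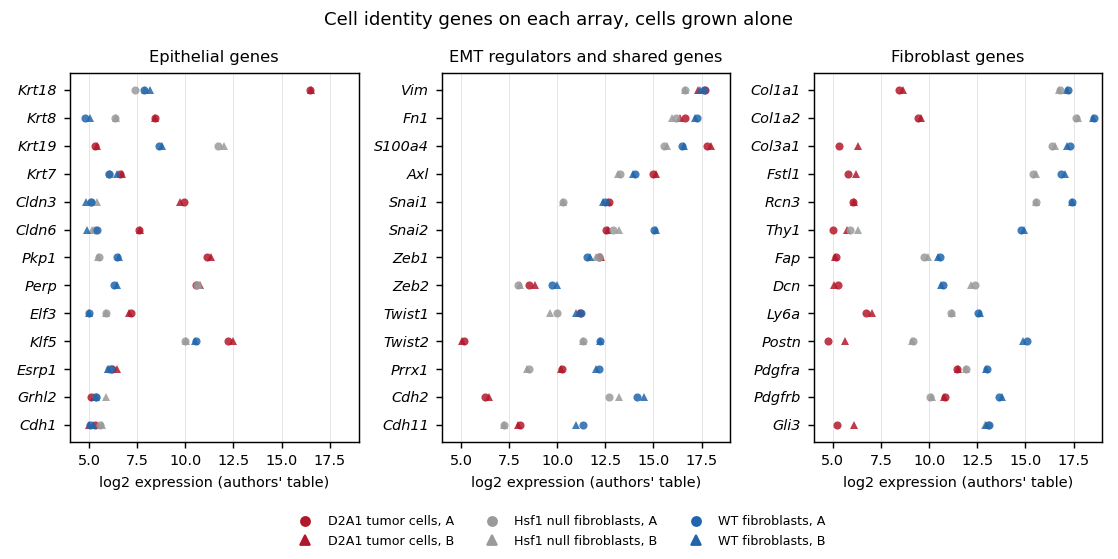
Log2 expression on each array (horizontal axis) of epithelial genes, EMT regulators and fibroblast genes, for D2A1 tumor cells (red), Hsf1 null fibroblasts (grey) and WT fibroblasts (blue); circles are A arrays and triangles B arrays. Krt18 separates tumor cells from both stocks, Vim, Snai1 and Twist1 lie close together in tumor cells and WT fibroblasts, and the collagens lie far to the right in both fibroblast stocks.

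Of 11 EMT transcription factors tested, 3 were not well above background in tumor cells and 1 was not in WT fibroblasts. Snai1 had 12.69 and 12.63 in tumor cells and 12.47 and 12.39 in WT fibroblasts (0.23 ± 0.15, adjusted p = 0.236). Twist1 had 11.16 and 11.14 against 11.21 and 10.97, so the groups overlapped, and Zeb1 was 0.61 ± 0.13 higher, short of 2-fold. None of the 11 was called higher and 6 were lower in tumor cells, among them Twist2, at least 139-fold, Foxc2, at least 53.01-fold, Snai2 (-2.49 ± 0.19), Prrx1 (-1.87 ± 0.18) and Zeb2 (-1.17 ± 0.24). Vimentin (Vim), the intermediate filament of mesenchymal cells, differed by -0.01 ± 0.13, with 17.69 and 17.32 in tumor cells and 17.62 and 17.42 in WT fibroblasts. The metastasis-linked S100a4 (1.33 ± 0.12) and the receptor kinase gene Axl (1.06 ± 0.13) were higher in tumor cells. N-cadherin (Cdh2) had 6.27 and 6.45 in tumor cells against 14.12 and 14.50 in WT fibroblasts, a difference of -7.95 ± 0.28, and Cdh13 was at least 406-fold lower. Tumor cells thus held Krt18 and the desmosome genes Pkp1, Pkp3 and Perp together with Vim, Snai1 and Zeb1, without Cdh1 above background. Krt19 and Dsp were lower, and the epithelial list as a whole split, with 14 genes higher and 12 lower than in WT fibroblasts.

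Wfdc2, a secreted protease-inhibitor-like protein used as a carcinoma marker in humans, showed the highest difference among genes well above background in both groups. It had 16.24 and 16.37 in tumor cells and 6.07 and 6.34 in WT fibroblasts (10.097 ± 0.16, adjusted p = 7.54e-11). Ramp3, which modifies calcitonin-family receptors, had 14.88 and 15.10 against 7.05 and 7.45 (7.74 ± 0.16). Among genes dim in WT fibroblasts, the lower bounds were highest for Mmp10, described with the proteases, for Tmem171 (at least 173-fold), for 2410076I21Rik (at least 145-fold) and for the serine protease gene Prss46 (at least 128-fold). Sox2, a pluripotency factor, had 10.83 and 11.17 in tumor cells and 5.29 and 5.63 in WT fibroblasts, at least 46.4-fold higher, whereas Nanog was lower by a difference of -1.63 ± 0.12. The homeobox gene Rhox5, active in the germ line and in many tumors, had 17.90 and 18.07 against 15.02 and 15.18 (2.89 ± 0.15).

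The fibroblast side of the comparison was led by the collagen matrix. Of 10 fibrillar collagens tested, none was higher and 9 were lower in tumor cells, with a median difference of -6.24. Of the 10, 4 were not well above background in tumor cells. Col3a1 had 5.32 and 6.297 in tumor cells and 17.31 and 17.16 in WT fibroblasts (-11.42 ± 0.49, adjusted p = 2.40e-08). Col1a1 had 8.41 and 8.65 against 17.19 and 17.14 (-8.64 ± 0.34), and Col1a2, the other chain of type I collagen, had 9.43 and 9.56 against 18.56 and 18.51 (-9.04 ± 0.39). None of these arrays overlapped between the groups. Col5a1, which nucleates fibrils, differed far less, by -1.47 ± 0.17, with 14.52 and 14.72 in tumor cells. Type VI collagen was lower too, with Col6a2 at -7.50 ± 0.37 and Col6a1 at -7.05 ± 0.27.

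Not every collagen was lower. Tumor cells had more mRNA of the basement-membrane-zone collagens Col18a1, the source of endostatin, at 14.26 and 14.18 against 11.37 and 11.31 in WT fibroblasts (2.88 ± 0.11), and Col7a1, the anchoring fibril collagen, at 13.06 and 13.23 against 10.16 and 10.37 (2.88 ± 0.15). The transmembrane collagen Col23a1 was higher by 2.03 ± 0.17, and Col22a1 at least 2.54-fold. Basement membrane collagen IV was closer between the cell types: Col4a1 was lower by a difference of -1.12 ± 0.18, and Col4a2 was not called at -0.21 ± 0.16. Of 11 laminin chains tested, glycoproteins of basement membranes, 4 were higher, among them Lama5 at 1.64 ± 0.14, Lamb1-1 at 1.26 ± 0.19 and Lamc3 at least 3.71-fold, and 5 were lower, with Lama4 at least 198-fold and Lama2 at least 94.0-fold.

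The enzymes that fold and cross-link collagen followed the fibrillar chains in part. Of 22 folding and processing genes, 1 was higher and 10 lower. The reticulocalbin Rcn3 had 6.02 and 6.10 in tumor cells and 17.40 and 17.40 in WT fibroblasts (-11.34 ± 0.26), and the prolyl isomerase Fkbp10, a collagen chaperone, was at least 2945-fold lower. The collagen chaperone Serpinh1 (HSP47), an Hsf1 target, differed by only -1.30 ± 0.13, and the lysyl hydroxylase Plod2 was the 1 gene higher, by 1.78 ± 0.17. Among the 6 cross-linking genes Lox, lysyl oxidase, was at least 291-fold lower and Loxl1 lower by a difference of -6.92 ± 0.28. Transglutaminase 2 (Tgm2) was higher, at 15.45 and 15.46 in tumor cells and 11.87 and 11.98 in WT fibroblasts (3.53 ± 0.16).

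Glycoproteins of the matrix were lower as a group. All 8 small leucine-rich proteoglycans tested were lower in tumor cells, where 4 were not well above background, with a median difference of -6.01. Ogn had 8.41 and 8.14 in tumor cells against 16.58 and 16.63 in WT fibroblasts (-8.33 ± 0.35), Bgn differed by -6.19 ± 0.44, and Aspn was at least 354-fold lower. Of 16 elastic fibre genes 12 were lower and none higher, among them Fbn1, fibrillin 1 (-6.83 ± 0.32), and Mfap2 (-5.89 ± 0.33). Of 29 matricellular genes, 20 were lower and 2 higher. Ctgf, a YAP and TGF-beta target, had 10.22 and 9.95 in tumor cells against 16.37 and 16.50 in WT fibroblasts (-6.35 ± 0.25). Osteopontin (Spp1), secreted by many metastatic carcinomas, was one of the 2 that were higher, at 15.47 and 15.28 against 11.14 and 11.53 (4.04 ± 0.26), and Tnxb was the other (1.89 ± 0.19). Fstl1, a secreted glycoprotein of mesenchyme, had 5.80 and 6.20 in tumor cells and 16.83 and 17.05 in WT fibroblasts (-10.94 ± 0.33).

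Matrix proteases divided by gene rather than as a family. Stromelysins and collagenase 3 degrade matrix proteins outside the cell. Of 22 metalloproteinases tested, 3 were higher in tumor cells and 12 lower. Mmp10 had 13.21 and 13.32 in tumor cells and 5.49 and 5.40 in WT fibroblasts, where it was not well above background, so it was at least 226-fold higher (adjusted p = 1.65e-09). Mmp13 had 10.48 and 10.63 against 5.48 and 5.46, at least 33.9-fold higher, and Mmp3 had 10.34 and 10.31 against 8.15 and 8.36 (2.08 ± 0.11). Gelatinase A (Mmp2) was the opposite, at 5.16 and 5.17 in tumor cells and 13.22 and 13.16 in WT fibroblasts, at least 261-fold lower.

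The promoters of the 3 metalloproteinases that were higher are shown because AP-1, the dimer of Fos and Jun proteins, is known to act on genes of this family. Whether AP-1 acts on them in these cells was not tested. The windows are the 250 bases before each gene's start in the RefSeq table of build GRCm38.p6, all on the plus strand of chromosome 9, and capitals mark TGANTCA, the AP-1 consensus, which is its own reverse complement and so was searched on both strands at once.
Mmp10 (chr9:7502092-7502341): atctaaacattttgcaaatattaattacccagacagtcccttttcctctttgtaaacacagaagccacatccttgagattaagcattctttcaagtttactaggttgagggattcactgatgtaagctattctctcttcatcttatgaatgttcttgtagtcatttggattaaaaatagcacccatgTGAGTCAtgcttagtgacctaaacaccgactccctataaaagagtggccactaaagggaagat
Mmp13 (chr9:7272264-7272513): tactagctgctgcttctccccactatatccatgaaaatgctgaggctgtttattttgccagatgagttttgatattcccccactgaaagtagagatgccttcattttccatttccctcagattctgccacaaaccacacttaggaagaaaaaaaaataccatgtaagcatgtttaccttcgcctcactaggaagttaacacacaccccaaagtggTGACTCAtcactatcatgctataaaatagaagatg
Mmp3 (chr9:7445572-7445821): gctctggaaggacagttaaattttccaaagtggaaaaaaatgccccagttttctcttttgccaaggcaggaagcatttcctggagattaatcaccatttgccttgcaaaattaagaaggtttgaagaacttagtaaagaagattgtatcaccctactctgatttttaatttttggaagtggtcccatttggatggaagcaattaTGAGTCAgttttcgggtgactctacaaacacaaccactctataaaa
The motif began 63 bases before the start in Mmp10, 35 bases in Mmp13 and 46 bases in Mmp3. It occurred in 2217 of 32851 promoter windows of that length in the table (6.75%). Only 14 of the 22 metalloproteinases tested had a window in the table: of those, the motif was in 3 of 3 that were higher, in 1 of 7 that were lower (Adam19, named for its motif after the match was seen) and in 1 of 4 that were not called (Mmp7). A gene with several windows was counted here if any of them held the motif, whereas the 6.75% is over single windows. The match describes letters in a window and not a bound site.

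Of 9 genes tested from the list of matrix protease inhibitors, 8 were lower in tumor cells. Membership of this list, which includes Serpinf1, does not mean that a gene inhibits the metalloproteinases above. Serpinf1, the antiangiogenic factor PEDF, had 6.81 and 6.69 in tumor cells and 15.65 and 15.84 in WT fibroblasts (-8.99 ± 0.38). Timp3 had 14.09 and 14.29 against 16.70 and 16.15 (-2.23 ± 0.28), Timp2 differed by -1.10 ± 0.10, and Reck, a membrane-anchored inhibitor, by -2.75 ± 0.10. Timp1 was not called (0.32 ± 0.11). In plasminogen activation, urokinase (Plau, 1.22 ± 0.23) and its receptor Plaur were higher, Plaur with 14.57 and 14.84 in tumor cells and 12.89 and 13.06 in WT fibroblasts (1.73 ± 0.13). Tissue plasminogen activator (Plat, -1.46 ± 0.20) was lower. Among integrins, the receptors for matrix, Itgb7 was higher by 5.15 ± 0.31, and the fibroblast collagen receptor Itga11 was at least 854-fold lower.

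Contractile smooth muscle genes, which mark myofibroblasts, were lower in 8 of 16 cases tested and higher in none. Acta2, alpha smooth muscle actin, had 14.10 and 13.61 in tumor cells and 18.31 and 18.32 in WT fibroblasts (-4.46 ± 0.32). Cnn1 (-6.45 ± 0.32) and Tagln (-4.86 ± 0.33) were lower, and Myocd, which encodes a coactivator of serum response factor, was at least 14.9-fold lower. Of 34 striated muscle genes tested, 6 were higher and 8 lower in tumor cells. The skeletal actin gene Acta1 was among the lower ones (-2.62 ± 0.43). Among the higher ones was the cardiac troponin gene Tnnt2, with 13.20 and 13.38 in tumor cells against 5.88 and 6.45 in WT fibroblasts (7.12 ± 0.18). Ankrd1, a YAP target, was also higher (3.02 ± 0.11), in contrast to Ctgf above.

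Growth factor genes showed opposite sides of the EGF system. EGF-family ligands bind and activate the receptor encoded by Egfr. Amphiregulin (Areg) had 11.33 and 11.49 in tumor cells and 5.63 and 5.67 in WT fibroblasts, where 1 of 2 arrays was well above background (5.76 ± 0.12, adjusted p = 3.25e-10). Hbegf had 14.28 and 14.55 against 11.61 and 11.76 (2.73 ± 0.17), Btc was at least 4.51-fold higher and Ereg higher by 1.11 ± 0.14. The receptor Egfr had 5.31 and 5.25 in tumor cells and 11.99 and 12.05 in WT fibroblasts (-6.74 ± 0.26), and Erbb2, a related receptor, differed by -1.12 ± 0.16. Tgfa and Egf were not called, at -0.07 ± 0.14 and -0.18 ± 0.18. The hepatocyte growth factor receptor gene Met was higher in tumor cells, with 9.66 and 9.96 against 7.54 and 7.59 (2.25 ± 0.16).

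Genes known to respond to ERK signalling were called in both directions. Fosl1, an AP-1 subunit stabilised by ERK, had 13.11 and 13.38 in tumor cells against 9.18 and 9.07 in WT fibroblasts (4.12 ± 0.14). Dusp4, an ERK phosphatase induced by the pathway, had 10.98 and 11.22 against 6.82 and 6.81 (4.28 ± 0.21), Etv4 differed by 3.15 ± 0.15, and Dusp6 by 1.58 ± 0.20. The immediate early genes Egr1 (-4.17 ± 0.31) and Klf2 (-3.74 ± 0.38) were lower. Fos and Fosb could not be compared: the tumor arrays stood at 8.26 and 12.85 for Fos and at 9.11 and 12.90 for Fosb, far from each other, against 13.36 and 12.87 for Fos and 11.27 and 9.23 for Fosb in WT fibroblasts. Of 25 genes in this group, 6 were higher and 2 lower.

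**Figure D3:**
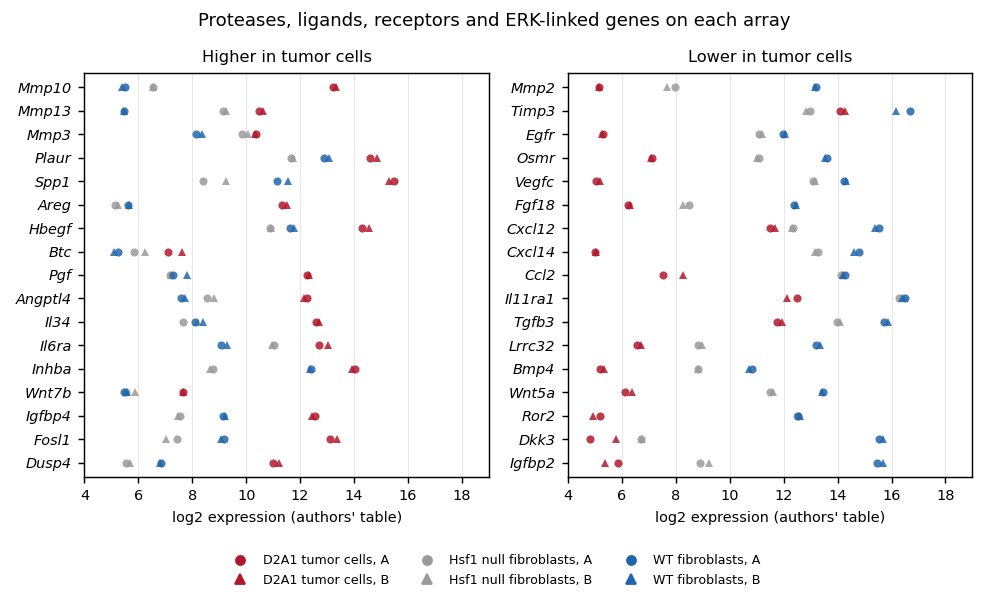
Log2 expression on each array (horizontal axis) of 17 protease, ligand, receptor and ERK-linked genes called higher in tumor cells (left) and 17 called lower (right); tumor cells are red, Hsf1 null fibroblasts grey and WT fibroblasts blue, with circles for A and triangles for B arrays. For each gene the red symbols lie apart from the blue ones, and the grey symbols of Dkk3, Igfbp2 and Mmp2 lie nearer to the red.

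Of 36 PDGF, FGF and VEGF family genes tested, 5 were higher and 14 lower in tumor cells. Placental growth factor (Pgf) had 12.26 and 12.33 in tumor cells and 7.27 and 7.81 in WT fibroblasts (4.76 ± 0.22), and Angptl4 had 12.26 and 12.14 against 7.59 and 7.72 (4.54 ± 0.28). The lymphangiogenic factor Vegfc had 5.05 and 5.19 in tumor cells against 14.23 and 14.32 in WT fibroblasts, at least 570-fold lower, and Vegfa was 0.99 ± 0.13 higher, just short of 2-fold. Fgf18 (-6.16 ± 0.19) and Fgfr3 (-5.21 ± 0.24) were lower. In the insulin-like growth factor axis 8 of 12 genes were lower and 2 higher. Igfbp2 had 5.85 and 5.36 against 15.48 and 15.68, at least 1002-fold lower, while Igfbp4 had 12.56 and 12.44 against 9.14 and 9.21 (3.32 ± 0.13) and Igfbp6 differed by 1.67 ± 0.16. Of 41 ephrin, semaphorin, netrin and Slit genes, which guide axons and vessels, 7 were higher, led by Sema4b (3.46 ± 0.13), and 21 lower, led by Sema3a (-4.62 ± 0.11).

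Wnt pathway genes were mostly lower in tumor cells, 25 of 35 tested, with 2 higher and a median difference of -2.85. Of the 35, 15 were not well above background in tumor cells and 1 was not in WT fibroblasts. The non-canonical ligand Wnt5a had 6.12 and 6.38 in tumor cells and 13.44 and 13.43 in WT fibroblasts (-7.18 ± 0.29), and its receptor Ror2 was at least 183-fold lower. Secreted modulators were lower, with Rspo1 at least 77.3-fold and Dkk3 at least 1264-fold. Sfrp2, an antagonist, had 5.59 and 9.64 on the tumor arrays, which disagree with each other, and 17.29 and 17.35 on the WT arrays (-9.70 ± 1.34, adjusted p = 1.28e-04). Wnt7b and the receptor gene Fzd6 were the 2 that were higher, with Wnt7b at 7.64 and 7.67 against 5.46 and 5.59 (2.13 ± 0.13).

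Of 22 TGF-beta ligand, receptor and target genes, 9 were lower and 2 higher in tumor cells, with a median difference of -0.56. The ligand genes differed among themselves: Tgfb3 had 11.76 and 11.93 in tumor cells against 15.73 and 15.88 in WT fibroblasts (-3.96 ± 0.21), and Tgfb1 was not called at 0.46 ± 0.18 (adjusted p = 0.0505). Activin A, encoded by Inhba, was higher in tumor cells, at 14.03 and 13.93 against 12.41 and 12.35 (1.60 ± 0.11), while its inhibitor follistatin (Fst, -3.90 ± 0.26) was lower. Of 20 bone morphogenetic protein genes, 12 were lower and none higher, and 8 of the 20 were not well above background in tumor cells. Bmp4 was at least 45.3-fold and Bmp2 at least 58.9-fold lower, and the target gene Id3 had 11.87 and 12.22 against 16.49 and 16.50 (-4.46 ± 0.29). In the Hedgehog pathway 6 of 11 genes were lower and none higher, led by Gli3 (at least 166-fold), Boc (-5.30 ± 0.26) and Gas1 (-3.34 ± 0.15). Notch genes were mixed, with Notch4 (2.36 ± 0.15), Dll1 (2.19 ± 0.25) and Nrarp (2.20 ± 0.24) higher and Notch3 (at least 73.6-fold), Jag1 (-1.81 ± 0.23) and Hes1 (-2.61 ± 0.37) among the 5 that were lower.

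Chemokines recruit leukocytes. Of 24 genes tested from the chemokine list, which includes the receptor Cxcr7, 9 were lower and 3 higher in tumor cells. Cxcl12, the ligand of Cxcr4 and a classical product of tumor-associated fibroblasts, had 11.48 and 11.68 in tumor cells against 15.55 and 15.40 in WT fibroblasts (-3.89 ± 0.17). Cxcl14 was at least 817-fold lower, and the monocyte attractant Ccl2 had 7.54 and 8.26 against 14.27 and 14.19 (-6.33 ± 0.41). The 3 that were higher were the scavenger receptor Cxcr7 (2.25 ± 0.21), Ccl6 (1.65 ± 0.16) and the neutrophil attractant Cxcl3 (at least 14.1-fold). For Ccl3 the tumor arrays stood at 5.10 and 17.14, so no level can be given for tumor cells, and the WT arrays stood at 5.10 and 4.94.

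Interleukin and inflammatory genes were called in 24 of 35 cases, 10 higher and 14 lower. Il34, a ligand of the macrophage receptor CSF1R, had 12.58 and 12.69 in tumor cells and 8.09 and 8.40 in WT fibroblasts (4.39 ± 0.20). Cyclooxygenase genes differed in direction: Ptgs1 had 14.58 and 14.60 against 9.68 and 9.99 (4.75 ± 0.13), and Ptgs2 was at least 11.96-fold lower in tumor cells. The IL-6 receptor chain Il6ra was higher by 3.66 ± 0.22, and the oncostatin M receptor Osmr had 7.12 and 7.07 against 13.59 and 13.53 (-6.47 ± 0.33). Cd14, the monocyte co-receptor for endotoxin, had 13.03 and 13.13 in tumor cells and 7.89 and 8.28 in WT fibroblasts (5.001 ± 0.14). The 10 macrophage markers summed to 9648 and 10037 on the tumor arrays and 1432 and 1397 on the WT arrays on the linear scale, of which Cd14 alone gave 8389 and 8996 on the tumor arrays and 237 and 310.1 on the WT arrays. Of the 10 markers, 7 were not called.

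Antigen presentation genes went both ways. The class I genes H2-K1 (1.45 ± 0.10), H2-D1 (2.10 ± 0.24), H2-Q7 (1.94 ± 0.16), H2-T23 (2.28 ± 0.10), H2-M3 (2.52 ± 0.12) and H2-Q2 (2.19 ± 0.20) were higher in tumor cells than in WT fibroblasts. H2-K1 had 14.87 and 14.91 in tumor cells, 15.48 and 15.47 in Hsf1 null fibroblasts and 13.41 and 13.47 in WT fibroblasts, so tumor cells lay above one stock and below the other. Class I probes of near-identical genes may share signal, and D2A1 cells and the fibroblasts may carry different H2 alleles, which was not tested. The light chain B2m was not called (0.08 ± 0.22), and the immunoproteasome subunits Psmb8 (-2.02 ± 0.23) and Psmb9 (-2.08 ± 0.18), the peptide transporter Tap1 (-1.30 ± 0.20) and tapasin (Tapbp, -1.05 ± 0.17) were lower.

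Ligands of the activating receptor NKG2D differed by family. H60b (3.29 ± 0.19) and H60a (3.07 ± 0.18) were higher in tumor cells, H60a with 14.22 and 14.44 against 11.24 and 11.29 in WT fibroblasts, whereas Raet1e (-3.53 ± 0.26) and Raet1b (-1.76 ± 0.15) were lower and Raet1a was at least 5.81-fold lower. The probes of such related genes may cross-hybridise. The interferon-induced genes were lower more often than the background, 14 of 35 tested, with 1 higher. Of the 35, 13 were not well above background in tumor cells and 3 were not in WT fibroblasts. Ifit3 had 6.27 and 6.97 in tumor cells against 10.01 and 10.00 in WT fibroblasts (-3.38 ± 0.22), Ifitm1 was at least 27.7-fold lower, and the transcription factor Stat2 differed by -2.08 ± 0.15.

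Genes of cell division were higher in tumor cells. Of 29 mitosis genes, 12 were called higher and none lower, with a median difference of 0.95, and of 35 DNA replication genes 8 were higher and none lower, with a median of 0.57. The changes were small beside those of matrix genes. Bub1, a spindle checkpoint kinase, had 13.09 and 13.20 in tumor cells and 11.83 and 11.79 in WT fibroblasts (1.34 ± 0.11). The mitotic kinase Nek2 differed by 1.74 ± 0.18, and the E2F transcription factor E2f2 had 12.57 and 12.92 against 10.60 and 10.39 (2.25 ± 0.18). Mki67, the common proliferation marker, was not called (0.12 ± 0.12).

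Of 15 D cyclins, their kinases and CDK inhibitors, 5 were lower, 1 was higher and 9 were not called, with a median difference of -0.19. The inhibitor gene Cdkn1c was at least 44.6-fold lower, Cdkn2a had 13.00 and 12.99 in tumor cells against 14.36 and 14.57 in WT fibroblasts (-1.47 ± 0.15), Cdkn1a differed by -1.39 ± 0.21, Cdkn2c by -1.25 ± 0.14 and the D cyclin gene Ccnd2 by -2.55 ± 0.46, while the kinase Cdk6 was higher (2.31 ± 0.18). The tumor suppressor Trp53 had 7.98 and 8.42 against 9.98 and 10.45 (-2.02 ± 0.22). Of 26 known p53 targets, 10 were lower, led by Trp53inp1 (-3.61 ± 0.19) and Phlda3 (-2.52 ± 0.16), and 5 were higher, among them Perp. The HMGA chromatin protein genes differed in direction, with Hmga1 at 12.79 and 12.39 in tumor cells against 9.89 and 9.97 in WT fibroblasts (2.66 ± 0.17) and Hmga2 at least 63.8-fold lower. The telomerase gene Tert was 1.54 ± 0.17 higher.

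Hsf1 mRNA was higher in tumor cells. It had 12.85 and 12.81 in tumor cells, 10.07 and 9.97 in Hsf1 null fibroblasts and 12.01 and 11.69 in WT fibroblasts. Tumor cells and WT fibroblasts differed by 0.98 ± 0.12 (adjusted p = 5.68e-05), which is 1.98-fold and so was not called. The probe stayed well above background in the null stock. Whether it lies in the deleted part of the gene is not given in the sources used here.

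Chaperones, which Hsf1 is known to induce, were higher in part. Of 36 cytosolic heat shock genes, 6 were called higher and 2 lower, and the median difference was 0.41. Hspa4l, an HSP110-type nucleotide exchange factor, had 13.70 and 13.61 in tumor cells against 11.02 and 10.83 in WT fibroblasts (2.73 ± 0.13). Fkbp4, an HSP90 co-chaperone, differed by 1.95 ± 0.12, the chaperonin genes Cct3 by 1.46 ± 0.09 and Hspd1 by 1.53 ± 0.12, and Hspe1 by 2.55 ± 0.59. The stress-inducible Hspa1a was not called at 0.02 ± 0.27, with 10.61 and 10.45 against 10.15 and 10.85, and Hsp90aa1 stood just short of 2-fold (0.95 ± 0.13). Proteasome subunits (2 of 34 higher, none lower), ribosomal proteins (3 of 57 lower, none higher) and ER chaperones (4 of 25 higher, 1 lower) are read against 10.4% higher and 11.8% lower over all genes.

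Genes of glycolysis and the hypoxia response, taken as 1 list, were higher in tumor cells in 15 of 37 cases and lower in 4, with a median difference of 0.76. Hexokinase 2 (Hk2), which starts glycolysis, had 11.92 and 11.92 in tumor cells and 9.63 and 9.83 in WT fibroblasts (2.19 ± 0.13). Pdk1, which keeps pyruvate from mitochondria, differed by 1.87 ± 0.11, the mitophagy receptor Bnip3 by 2.17 ± 0.10 and the phosphofructokinase gene Pfkl by 1.93 ± 0.16. Other members of the hypoxia list went the opposite way. Car9, a carbonic anhydrase induced by hypoxia, had 7.15 and 7.22 in tumor cells and 14.97 and 14.95 in WT fibroblasts (-7.78 ± 0.16). Adm was at least 88.4-fold and the glucose transporter Slc2a3 at least 6.63-fold lower, and the lactate exporter Slc16a3 differed by -2.45 ± 0.18. Genes of oxidative phosphorylation were called in 3 of 46 cases, 1 higher and 2 lower, and cholesterol synthesis genes in 4 of 30, all lower. Of 32 antioxidant and xenobiotic genes, 6 were higher and 5 lower in tumor cells, with differences down to -2.77. The 6 included Aldh3a1 (3.72 ± 0.21) and the glutathione synthesis gene Gclm (1.47 ± 0.15).

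Hox genes record position along the body axes, and WT fibroblasts and tumor cells used different parts of the clusters. In the Hoxa cluster the anterior genes were higher in tumor cells. Hoxa2 had 10.18 and 10.05 in tumor cells against 6.75 and 6.83 in WT fibroblasts (3.33 ± 0.11), Hoxa5 had 11.06 and 10.84 against 7.41 and 7.28 (3.61 ± 0.13), and Hoxa3 (2.23 ± 0.10), Hoxa4 (1.80 ± 0.14), Hoxa6 (1.49 ± 0.20) and Hoxa7 (2.64 ± 0.13) were higher too. From Hoxa9 onward the sign turned: Hoxa9 differed by -2.31 ± 0.21 and Hoxa10 by -1.72 ± 0.18, and Hoxa11 had 4.94 and 4.97 in tumor cells against 12.03 and 11.98 in WT fibroblasts, at least 132-fold lower. The antisense transcript Hoxa11as differed by -8.77 ± 0.37, and Hoxa13 was at least 17.3-fold lower.

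No tested gene of the other clusters was called higher in tumor cells, and 5 of 7 Hoxc and 3 of 7 Hoxd genes were lower. All 8 Hoxb genes tested were lower, and 7 of them were not well above background in tumor cells, as were 5 of 7 Hoxc and 7 of 7 Hoxd genes tested. Hoxb9 was at least 54.0-fold, Hoxc13 at least 65.2-fold and Hoxd13 at least 236-fold lower. Hoxc9 had 6.43 and 6.58 in tumor cells, 5.63 and 5.86 in Hsf1 null fibroblasts and 12.55 and 12.85 in WT fibroblasts, so this difference of -6.20 ± 0.64 holds against the WT stock, and the null stock lay below the tumor cells. Of 45 further patterning factors, 21 were lower and 2 higher. Msx1 had 7.06 and 7.15 against 13.30 and 13.39 (-6.24 ± 0.38), and Six2 was at least 42.0-fold lower.

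**Figure D4:**
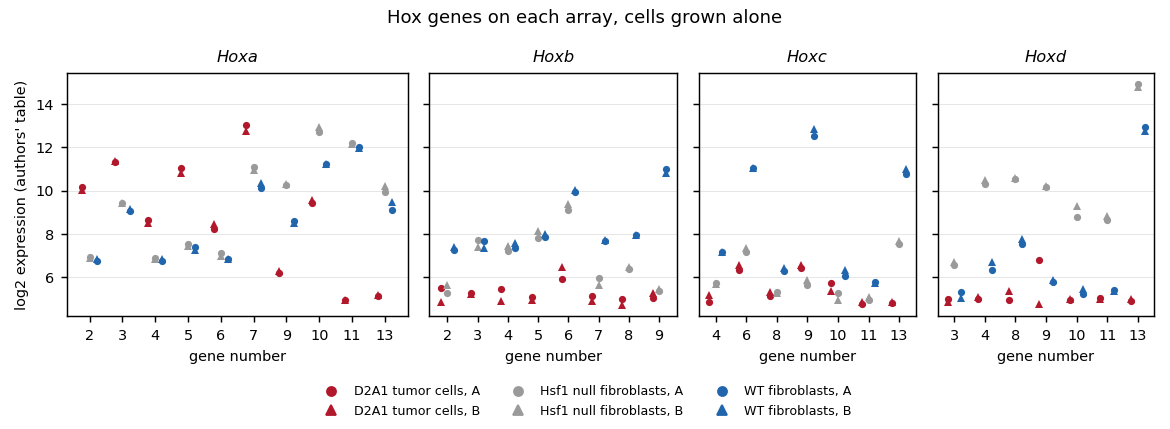
Log2 expression (vertical axis) of Hox genes tested, by cluster and gene number (horizontal axis), with D2A1 tumor cells in red, Hsf1 null fibroblasts in grey and WT fibroblasts in blue; circles are A and triangles B arrays. Red symbols lie above both stocks from Hoxa2 to Hoxa7 and near 5 for most genes of the other clusters.

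Imprinted genes, expressed from 1 parental allele and active in embryonic mesenchyme, were lower in 18 of 23 cases tested and higher in none, with a median difference of -2.62. Of the 23, 11 were not well above background in tumor cells, and 10 were well above it in both groups. H19 had 5.67 and 5.71 in tumor cells and 9.68 and 9.62 in WT fibroblasts (-3.96 ± 0.22). Sgce was at least 378-fold, Dlk1 at least 138-fold and Grb10 at least 33.0-fold lower, and Plagl1, a regulator of the imprinted network, had 6.45 and 6.61 against 10.87 and 10.82 (-4.31 ± 0.16). In the same list Igf2r, the clearance receptor for IGF2, differed by -2.73 ± 0.27. Xist, the RNA of the inactive X chromosome, had 7.36 and 7.22 in tumor cells, 4.76 and 4.98 in the null stock and 10.42 and 9.94 in WT fibroblasts (-2.89 ± 0.29).

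Several of the highest differences belonged to probes named for taste, odour and melanocortin receptor genes or for predicted genes. Tas2r113, a bitter taste receptor, had 15.90 and 15.58 in tumor cells against 7.16 and 6.38 in WT fibroblasts (8.98 ± 0.41). Olfr1466, an odorant receptor, had 16.84 and 16.72 in tumor cells, 11.96 and 11.36 in the null stock and 8.73 and 7.93 in WT fibroblasts (8.45 ± 0.31). Tas2r109 differed by 8.04 ± 0.36 and the predicted gene Gm4653 by 7.999 ± 0.29, and Mc3r, chosen after its values were seen, had 15.40 and 14.84 against 5.78 and 5.42 (9.52 ± 0.63). The receptor genes among these act in sensory cells and in the brain. Each gene, Gm4653 included, was measured by a single probe, so the probe sequences are shown, as designed, with mm9 coordinates from the scanner files. Capitals mark the strings TCTCTCT and TCTTGCT, which were chosen after the sequences were seen and can overlap each other.
Tas2r113 (chr6:132843899-132843958, plus strand): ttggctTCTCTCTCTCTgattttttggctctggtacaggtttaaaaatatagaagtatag
Tas2r109 (chr6:132930033-132930092, minus strand): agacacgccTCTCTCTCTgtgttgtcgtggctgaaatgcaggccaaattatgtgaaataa
Olfr1466 (chr19:13416809-13416868, plus strand): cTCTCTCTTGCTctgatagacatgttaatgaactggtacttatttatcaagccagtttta
Gm4653 (chr14:102293101-102293160, minus strand): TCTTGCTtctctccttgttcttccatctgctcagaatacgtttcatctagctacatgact
Mc3r (chr2:172076555-172076614, plus strand): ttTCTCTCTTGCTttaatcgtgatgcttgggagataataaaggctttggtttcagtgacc
All 5 probes carry one of these pyrimidine-rich strings, and 2 carry both.

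The strings were then counted over the 16976 tested genes that have 1 probe, as a description. Of these genes 11.6% were called higher in tumor cells and 13.3% lower. Among the 152 whose probe holds TCTCTCT, 33.6% were called higher and 10.5% lower, and the median difference was 0.60 against 0.068 over all 16976. At 4-fold, 37 of the 152 were called higher and 10 lower, against 542 higher and 1064 lower of the 16976. Among the 111 with TCTTGCT, 24.3% were called higher and 8.11% lower. These counts include the probes shown above, from which the strings were chosen. Among 157 genes whose probe holds the reverse complement of TCTCTCT, 12.1% were called higher and 19.7% lower, and among 124 with that of TCTTGCT, 11.3% were called higher and 13.7% lower. Among the genes described above, the probes of Pkp3 and Nes, called higher, hold such a string, and so does that of Ctnnd1, called lower. Whether these probes measure their named genes was not tested.

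Where the WT stock stood apart from the null stock, the fibroblast level in the comparison belongs to 1 stock. Between the stocks 3411 of 25852 genes (13.2%) were called. The stock difference was WT minus null, and the column runs in that direction for each value in this paragraph. Penk, the enkephalin precursor, had 5.38 and 5.01 in tumor cells, 10.12 and 10.03 in the null stock and 17.92 and 17.80 in WT fibroblasts, at least 6508-fold lower in tumor cells than in WT, with a stock difference of 7.78. Thy1 had 4.99 and 5.72 in tumor cells, 5.91 and 6.28 in the null stock and 14.79 and 14.93 in WT fibroblasts, with a stock difference of 8.76 (SE 1.098). Gas6, the ligand of Axl, differed by 5.70 and Wisp2 by 5.41. By contrast Col1a1 (0.40), Col1a2 (0.87), Col3a1 (0.77), Sgce (-0.71), Gli3 (0.06) and Sepp1 (-0.80) were not called between the stocks. Among genes dim in tumor cells, Fkbp10 (0.82) and Bicc1 (0.93) were not called either, although Bicc1 was at least 2887-fold lower in tumor cells than in WT fibroblasts, and Ppic, at least 2889-fold lower, had a stock difference of 1.30.

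The same cell types sorted after co-culture, on 4 other arrays, differed in the same direction but less. The levels of these 4 arrays do not enter the differences above. Their spread does enter the standard errors and p-values of the shared fit, and their background flags the choice of genes tested. Of the 5737 genes called between cells grown alone, 5665 had the same sign between sorted tumor cells and sorted WT fibroblasts, where 2540 of 25852 genes (9.83%) were called. Wfdc2 had 15.90 and 16.00 in sorted tumor cells and 14.45 and 14.51 in sorted WT fibroblasts, a difference of 1.47 ± 0.16 in place of 10.097. Krt18 differed by 0.03 ± 0.22 after sorting, with 16.14 and 16.44 in sorted tumor cells and 16.16 and 16.37 in sorted WT fibroblasts. On the other side, Col3a1 differed by -3.60 ± 0.49 and Rcn3 by -4.12 ± 0.26 after sorting. Over 11 of the 12 highest genes the sorted difference lay between 0.03 and 2.58, and over 11 of the 12 lowest between -4.44 and -3.13. Fibroblasts received mitomycin C only where the tumor cells of a co-culture were to be profiled, so the sorted groups differed in this treatment too. Co-culture, mitomycin C and cells carried over in the sort cannot be told apart here.

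**Figure D5:**
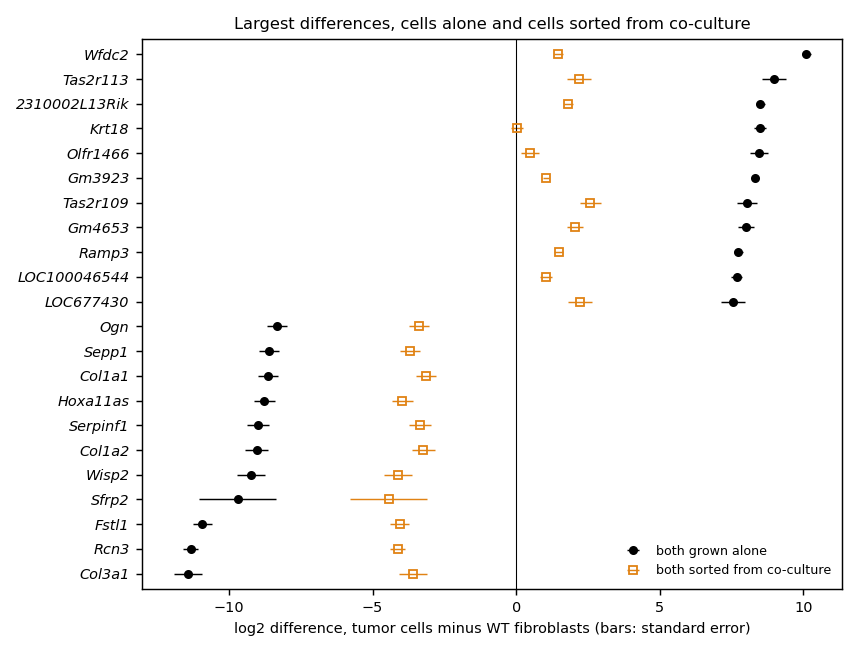
Log2 difference, tumor cells minus WT fibroblasts, ± SE (horizontal axis), for genes with the highest and lowest differences; filled circles are cells grown alone and open squares cells sorted from co-culture. The squares lie between 0.03 and 2.58 for the higher genes and between -4.44 and -3.13 for the lower ones.

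Over chromosomes 1 to 19 and X, the median difference ran between -0.093 on chromosome 10 and 0.23 on chromosome 3. Chromosome 1 (16.1%), chromosome 15 (15.8%), chromosome 3 (15.0%) and chromosome 14 (14.2%) had the highest shares of genes called higher in tumor cells, and chromosome 10 (17.6%) and chromosome 5 (14.9%) the highest shares called lower. These shares are a description of gene rows with mm9 positions from the scanner files, and copy number was not measured.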

How the data were processed

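Total RNA (0.5 µg, Cy3) was hybridised to 1-colour Agilent arrays of design 028005. The authors' deposited table holds log2 expression values, whose exact normalization is not given in the sources used here, with array medians of 6.33 to 6.40. The deposited scanner files hold intensity values from Agilent Feature Extraction, version 10.1.1.1 in the deposited headers and 9.1 in the submitters' processing notes, and gave gene names, mm9 positions and background flags. Genes well above background on both arrays of at least 1 group were tested, leaving out the flags of faulty scanner files. limma 3.58.1 in R 4.3.3 fitted 1 mean per group over all 14 arrays (7 residual degrees of freedom), with Benjamini-Hochberg adjustment over 25852 genes; a call is an adjusted p under 0.05 and at least 2-fold. On simulated data for this comparison over 25852 genes, 87 of 100 genes changed by 1.5 and 98 of 100 changed by -3 (log2) were called, and 4 of 25652 unchanged genes. Only those genes were changed there and the arrays were drawn independently, whereas 51.5% of the real genes passed an adjusted p of 0.05. The simulation therefore gives no rate of false calls for the real data.

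Genes were named by rule: Hsf1, genes among the 12 highest and 12 lowest differences, the 4 highest bounds in each direction, and up to 6 called members per role and direction of each list, with any member of roles of 12 or fewer, and the cell type markers. Members and lists were chosen with earlier results of these data known. A few genes that the rule names are not reported here. Alternatives were the slide as a block, the 4 arrays alone, each array left out, other filters, scalings and thresholds, the variance model and the scanner signals. Promoters are from RefSeq, GRCm38.p6.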

Additional observations from a re-analysis of the deposited data

Results flagged for a closer look

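Among the 27 genes that head the comparison and are named above (Hsf1, the highest and lowest differences and the highest bounds), 14 differed between the fibroblast stocks by limma (adjusted p under 0.05 and at least 2-fold), so the difference from tumor cells depended on the stock. The values are log2 differences, WT minus Hsf1 null fibroblasts: Hsf1 (1.83), Tas2r113 (-1.27), Olfr1466 (-3.33), Gm4653 (-1.11), Rcn3 (1.85), Fstl1 (1.48), Sfrp2 (6.77), Wisp2 (5.41), Serpinf1 (4.20), Hoxa11as (-1.39), Ogn (1.08), Mmp10 (-1.10), Penk (7.78) and Ppic (1.30). The cause of these stock differences was not tested.

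In 25 of the 27 the difference between tumor cells and WT fibroblasts itself changed between cells sorted from co-culture and cells grown alone, by the interaction term in the same limma fit. As the sorted difference minus the difference alone, on the log2 scale, genes higher in tumor cells gave Wfdc2 (-8.63), Tas2r113 (-6.80), Krt18 (-8.47), Olfr1466 (-7.96), Tas2r109 (-5.46), Gm4653 (-5.94), Ramp3 (-6.27), Mmp10 (-7.14), Tmem171 (-5.55), 2410076I21Rik (-5.35) and Prss46 (-5.58). Genes lower in tumor cells gave Col3a1 (7.83), Rcn3 (7.21), Fstl1 (6.88), Wisp2 (5.14), Col1a2 (5.80), Serpinf1 (5.66), Hoxa11as (4.80), Col1a1 (5.51), Sepp1 (4.92), Ogn (4.95), Penk (9.34), Fkbp10 (7.68), Ppic (7.73) and Bicc1 (7.27). In each of the 25 the sign is opposite to that of the difference alone. For genes that were not well above background in a group these values are not bounds. Hsf1 and Sfrp2 were the other 2 of the 27. Co-culture, mitomycin C on the fibroblasts of some co-cultures and carry-over in the sort cannot be told apart.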

How the results depend on the processing

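The slide as a replicate block gave 2756 genes higher and 3046 lower in tumor cells and ended no call among the 236 called genes named. Same-letter arrays deviated together in 20 of 21 pairs of groups (r over 0.1, lowest 0.092, and 0.301 for tumor cells and WT fibroblasts), but the letters share only a number and a slide. Fitting the 4 arrays alone, the unfiltered table, quantile normalization and the trended robust fit likewise ended no call among the 236. Leaving out 1 array gave 2680 to 2856 genes higher and 2916 to 3218 lower, and ended 1 to 5 of the named calls. Centring on the median moved the median of all genes to 0.187, gave 3221 higher and 2740 lower, and ended the calls of Tapbp and Timp2. Genes well above background in both groups numbered 20017, of which 2312 were higher and 1826 lower, the opposite balance to the 2697 higher and 3040 lower over all genes tested. Among list members 251 were lower, against 430 in the full set, and 162 were higher, against 189. This filter leaves out genes dim in 1 group, with 2640 well above background only in WT fibroblasts and 533 only in tumor cells. At 4-fold 2118 genes were called (712 higher, 1406 lower), and at 8-fold 1156 (310 higher, 846 lower). From scanner signals on 12 sound arrays, 3640 genes were higher and 3404 lower (75th percentile) or 2188 and 2346 (normexp), and 14 or 9 named calls were lost and none reversed. With both faulty scanner files kept, 3227 genes were called (1668 higher, 1559 lower), 246 list members were lower, 65 named calls were lost and 14 reversed: Bub1 (-1.92), Col7a1 (-0.063), Gclm (-0.93), H2-K1 (-1.94), H2-Q2 (-0.53), H60b (-0.044), Hk2 (-0.75), Hoxa3 (-0.48), Hspa4l (-0.53), Hspe1 (-1.42), Igfbp6 (-1.09), Klf5 (-1.47), Pdk1 (-1.11) and Plau (-1.25). Hsf1 passed 2-fold without tumor array B (1.002) or WT array A (1.14), after median centring (1.09) and from 12 scanner files (1.14), stayed at 0.83 to 0.98 in the other settings, and stood at -2.60, uncalled and with its sign turned, with both faulty scanner files kept. Between the stocks, 147 of the genes named were called, and 139 to 140 without 1 array. With 2 arrays a group and dim signals compressed in the table relative to the scanner signals, small differences of dim genes are the least certain.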

Other observations

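The A and B arrays of a group disagreed for a few genes. In all, 10 genes differed by at least 4 on the log2 scale between the 2 tumor arrays, among them Ccl3, Fos and Sfrp2, against 1 gene between the WT arrays and 3 between the Hsf1 null arrays. The cause was not tested.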
